A study of Mus musculus with 9 samples.

Results

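The RNA described here was read from 9 single repeat copies that lie in exons of 7 genes of the primitive endoderm and the extracellular matrix, Gata4, Col4a2, Loxl2, Plod2, Sdc4, Podxl and Adamts9. They are 9 of the 623916 repeat copies listed in the table. The copies were selected on a readout of these same libraries, their low counts in the G4 Terc-/- libraries against those of WT, so their levels and fold changes in every comparison are a description and carry no test. The rule named 8 positions, and a further copy, an MTEb in Loxl2, met it because it shares 1 base with its MTEb-int neighbour. All 9 copies passed the filter on low counts.

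Embryonic stem cells (ESCs) are cultured from the inner cell mass of the blastocyst, and the primitive endoderm is the other lineage that this cell mass gives rise to. Primitive endoderm forms under the transcription factors Gata6, Gata4 and Sox17, and its parietal descendants secrete a thick basement membrane of type IV collagen and laminin. Collagen chains are hydroxylated and folded in the endoplasmic reticulum before secretion and are crosslinked outside the cell by lysyl oxidases, while syndecans and integrins tie cells to the matrix. Reads on a repeat inside an exon cannot be told apart from reads of the transcript that carries it, so these copies report the host gene where the host is transcribed.

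The ESCs were of the C57BL/6 background and, per the title of the series, at early passage. There were 3 groups of 3 libraries. WT ESCs were the controls, G1 Terc-/- ESCs came from Terc+/- mice, and G4 Terc-/- ESCs came from blastocysts of G3 Terc-/- mice, so that both mutant groups lacked Terc, the telomerase RNA, and G4 followed further generations without it. The comparison with G1 addresses whether a change goes with the loss of Terc or with the later generation. All cells were cultured in serum medium with leukemia inhibitory factor, and feeder cells were removed before RNA extraction. Line cannot be told apart from generation, nor from the loss of Terc in G1 against WT. The study's methods give 2 biological replicates per line where the labels give 3 libraries per group, so the spread between libraries may be technical. Library totals ran from 918879 to 1137257 counts, with a median of 992072. No repeat copy lay within Terc, so the deletion was not checked in these counts. In bulk RNA, fewer cells of a type and less RNA per cell cannot be told apart.

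Of the copies, 7 lay in 3′ UTRs, between 380 and 3154 bases from the 3′ end of their gene. They were the B1F1 of Col4a2 (chr8:11448389-11448529, mm10), the LTR103b_Mam of Gata4 (chr14:63199746-63199900), the MTEb-int and MTEb of Loxl2 (chr14:69694010-69694554 and chr14:69694554-69694884), the MIRb of Plod2 (chr9:92607634-92607709), the MER3 of Sdc4 (chr2:164424627-164424738) and the MIR3 of Podxl (chr6:31522642-31522717). They belong to unrelated repeat groups, the SINEs B1F1, MIRb and MIR3, the LTR elements LTR103b_Mam and MTEb, and the DNA transposon MER3. Of these 7 copies, the Plod2 MIRb is the one that runs along the strand of its gene.

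Adamts9 carried the other 2 copies, in the last exon (chr6:92845594-92849468) of the transcript Adamts9-203, which keeps an intron and has no coding sequence. Both sequences are shown because they are the members outside the UTRs, because they are unlike each other, and because the same transcript carries both. They are written 5′ to 3′ on the minus strand, along Adamts9, as in GENCODE M21 transcripts of mm10. Capitals mark the run of A at the end of the B1F1 copy (chr6:92846540-92846624) and a run of TG pairs in the RLTR17B_Mm copy (chr6:92847629-92847725).
Adamts9 B1F1: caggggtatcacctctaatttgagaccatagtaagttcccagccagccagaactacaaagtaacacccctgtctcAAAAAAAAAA
Adamts9 RLTR17B_Mm: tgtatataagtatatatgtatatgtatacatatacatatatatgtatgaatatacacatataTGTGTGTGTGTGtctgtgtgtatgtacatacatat
The B1F1 copy is 85 bases long with 57.6% A or T, and the RLTR17B_Mm copy is 97 bases long with 76.3% A or T. The B1F1 copy also lies in an exon of A730049H05Rik, a gene on the opposite strand. The library kit does not mark strand, so reads from the pair cannot be told apart there.

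Every one of the 9 copies stood in the same order, WT above G1 and G1 above G4, with no overlap between the libraries of any pair of groups. Among the 13278 copies tested, 25.9% had all G4 libraries below all WT libraries, 12.5% had all G1 libraries below all WT libraries, and 24.4% had all G4 libraries below all G1 libraries. The step from WT to G4 was part of the selection of the members, and the other comparisons share libraries with it. Nothing is therefore read from their count. In CPM, which are counts scaled to a common library total, and leaving out Sdc4, G1 kept 43.0% to 51.5% of the WT mean and G4 kept 2.08% to 10.5%. Sdc4 kept more in both groups, 85.7% ± 0.762 (SD, n = 3) in G1 and 40.2% ± 4.76 (SD, n = 3) in G4. The median log2 fold change of the 9 copies was -4.2 in G4 against WT, -1.04 in G1 against WT and -3.15 in G4 against G1, where the medians of all tested copies were -0.02, 0.01 and -0.05. Within G4, replicate 1 was the lowest library for 6 of the 9 copies.

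**Figure D1:**
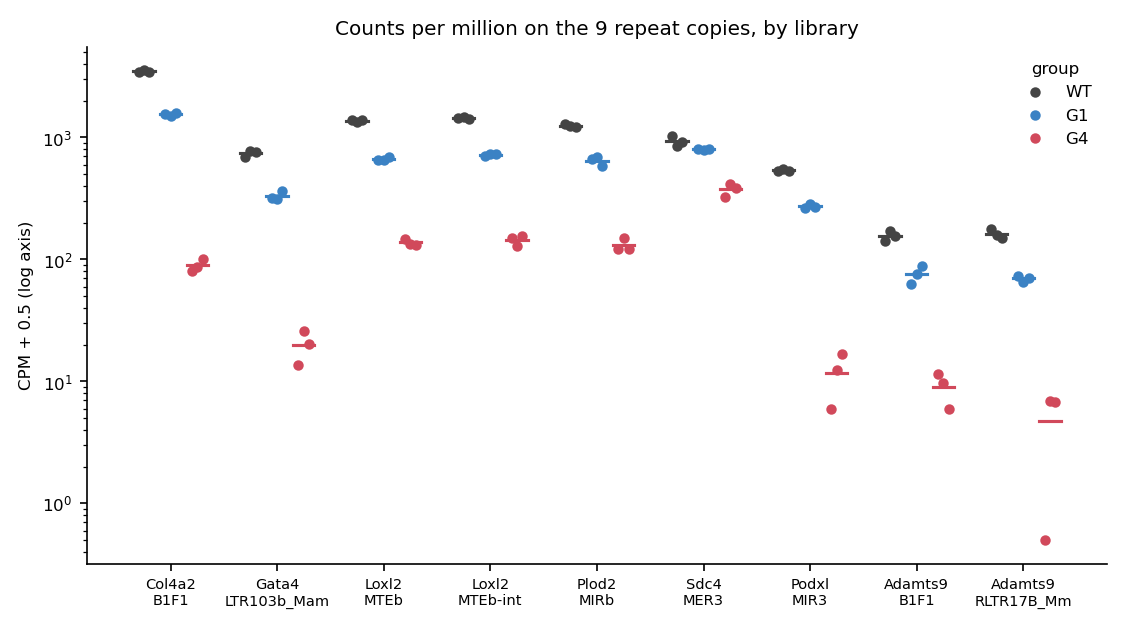
CPM (TMM scaled) plus 0.5 on a log axis for the 9 repeat copies, with 1 point per library, a bar at the mean and 3 libraries per group. In each copy the WT libraries sit above the G1 libraries and the G1 libraries above the G4 libraries, with the smallest steps in Sdc4 and 1 G4 library at 0 counts in the RLTR17B_Mm copy of Adamts9.

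Gata4 is the member that encodes a transcription factor of the primitive endoderm. Its LTR103b_Mam copy held 666, 737 and 796 counts in the WT libraries, 304, 356 and 334 in G1, and 12, 28 and 22 in G4. All G4 libraries stood far below the lowest G1 library. The G4 level was 2.63% ± 0.835 of WT (SD, n = 3), and the log2 fold change was -5.22 (SE 0.15) in G4 against WT and -1.16 (SE 0.11) in G1 against WT.

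Col4a2 encodes the α2 chain of type IV collagen, the collagen of basement membranes. Its B1F1 copy was the most abundant member, with 3303, 3392 and 3606 counts in WT, 1491, 1683 and 1443 in G1, and 73, 95 and 111 in G4. Scaled to CPM, WT held 3480 ± 54.0, G1 held 1540 ± 48.9 and G4 held 88.9 ± 9.93 (SD, n = 3). The log2 fold change was -5.28 (SE 0.09) in G4 against WT, -1.17 (SE 0.07) in G1 against WT and -4.11 (SE 0.09) in G4 against G1. The spread within each group was small beside these steps.

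Plod2 and Loxl2 encode enzymes of collagen maturation, a lysyl hydroxylase of the endoplasmic reticulum and a secreted lysyl oxidase. The MIRb copy of Plod2 held 1228, 1189 and 1274 counts in WT, 634, 773 and 530 in G1, and 110, 163 and 136 in G4. Its log2 fold change was -3.25 (SE 0.1) in G4 against WT and -0.96 (SE 0.09) in G1 against WT. The G1 libraries lay apart from both other groups, and G4 kept 10.5% ± 1.27 of the WT level (SD, n = 3).

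The MTEb-int copy of Loxl2 held 1368.5, 1407.25 and 1464.15 estimated counts in WT, 676.19, 826.92 and 667.39 in G1, and 135.32, 140.25 and 171.07 in G4. The adjoining MTEb copy held 1343.19, 1293.86 and 1440.2 in WT, 628.28, 743.63 and 633.61 in G1, and 135, 146.75 and 147 in G4. Both copies had a log2 fold change of -3.32 (SE 0.09) in G4 against WT. They are neighbours on one transcript and their values are not whole, so they are not separate measurements.

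Sdc4 and Podxl encode proteins of the cell surface, the heparan sulfate proteoglycan syndecan-4 and the sialomucin podocalyxin. The MER3 copy of Sdc4 held 992, 809 and 951 counts in WT, 771, 892 and 726 in G1, and 297, 453 and 426 in G4. Its raw counts overlapped between WT and G1, and its CPM did not, with a lowest WT library of 845 CPM and a highest G1 library of 804 CPM. The log2 fold change was -1.31 (SE 0.1) in G4 against WT and -0.22 (SE 0.09) in G1 against WT.

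The MIR3 copy of Podxl held 505, 531 and 553 counts in WT, 254, 318 and 243 in G1, and 5, 13 and 18 in G4. It had the lowest G4 level of the 9 copies relative to WT, 2.08% ± 1.0 (SD, n = 3). The log2 fold change was -5.53 (SE 0.17) in G4 against WT and -0.98 (SE 0.12) in G1 against WT. The G1 values of Podxl and Plod2 thus lay close together while their G4 values lay apart.

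Adamts9 encodes a secreted metalloproteinase that cleaves matrix proteoglycans. Its B1F1 copy held 135, 164 and 162 counts in WT, 60, 85 and 80 in G1, and 10, 10 and 6 in G4. Its RLTR17B_Mm copy held 169, 151 and 156 counts in WT, 70, 73 and 64 in G1, and 0, 7 and 7 in G4. The log2 fold change in G4 against WT was -4.2 (SE 0.23) for the B1F1 copy. It was -5.13 (SE 0.29) for the RLTR17B_Mm copy, whose G4 value rests on 2 libraries with counts. The levels of the 2 sequences printed above did not differ beyond their spread in WT, at 156 ± 15.3 and 161 ± 13.5 CPM (SD, n = 3).

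Per 100 bases of copy, the WT level fell from 2470 CPM in Col4a2 through 1640 in Plod2, 830 in Sdc4, 707 in Podxl and 479 in Gata4 to 417 and 262 in the Loxl2 MTEb and MTEb-int copies, and to 184 and 166 in the Adamts9 B1F1 and RLTR17B_Mm copies. The reads are longer than most of these copies, which raises short copies in this scale. In G4 the order per 100 bases was another one. Sdc4 came first with 334 CPM, then Plod2 with 172 and Col4a2 with 63.0, and Podxl with 14.7 and Gata4 with 12.6 stood below both Loxl2 copies, at 41.7 and 26.4.

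Other copies in the same genes were read as a description of the same transcripts. A further 4 copies in the 3′ UTR of Loxl2, a PB1D7, an MTEb, an ID_B1 and a B2_Mm1t, held 2156.31, 2308.88 and 2218.65 estimated counts together in WT, 1073.53, 1219.45 and 971 in G1, and 231.69, 243 and 257.93 in G4. Of the WT level, G1 kept 48.2% ± 1.2 and G4 kept 10.4% ± 0.741 (SD, n = 3), beside 50.5% ± 1.12 in G1 in the MTEb-int copy. In all, 13 other copies in the 7 genes held more than 5 counts per library on average, and in 13 of 13 the G4 libraries lay below the WT libraries, beside 25.9% of all copies tested. They share transcripts with the selected copies, and nothing is read from this count. Of these, 5 were exonic and the others lay in introns of Adamts9 and Loxl2. The weakest step was that of an RCHARR1 copy within Loxl2 that lies in an exon of Gm27177, with 10.22, 12.2 and 11.03 estimated counts in WT and 6.5, 8.12 and 6.82 in G4. The Adamts9 B1_Mur4 copy in an intron, with 21, 23 and 26 counts in WT and 7, 17 and 21 in G1, was at 0 in all G4 libraries. Below the limit of 5 counts lay 5 other exonic copies of Adamts9. Together they held 17, 10 and 8 counts over the WT, G1 and G4 libraries, and the groups overlapped. In G4 they kept 46.6% ± 26.0 of WT (SD, n = 3), a value near the floor.

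Introns are removed from the mature RNA, so reads on them come largely from precursor RNA. Summed over all intronic copies of a gene, the G4 libraries lay below the WT libraries in 7 of 7 genes and the G1 libraries in 4 of 7. Among the intron sums of all 7843 genes tested, this was so in 18.5% for G4 and 7.79% for G1. The genes were chosen by their exonic copies in the same libraries, and nothing is read from the count. Col4a2 introns held 111, 93 and 119 counts in WT, 34, 39 and 29 in G1, and 4, 2 and 4 in G4. Gata4 introns held 95, 71 and 139 in WT, 20, 36 and 51 in G1, and 5, 3 and 1 in G4. In G1 the Col4a2 introns kept 31.2% ± 1.71 of WT, below the 44.4% ± 1.4 of its exonic copy (SD, n = 3). The Gata4 introns kept 35.5% ± 17.6, which did not differ beyond the spread from the 44.9% ± 3.97 of its exonic copy (SD, n = 3).

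Adamts9 introns held 180, 227 and 272 counts in WT, 97, 113 and 131 in G1, and 29, 18 and 12 in G4. Loxl2 introns kept 57.8% ± 4.55 in G1 and 20.5% ± 1.68 in G4, relative to WT (SD, n = 3), above the 10.4% ± 0.741 that its other exonic copies kept in G4. Sdc4 introns, with 19, 25 and 28 counts in WT and 5, 9 and 12 in G4, kept 33.7% ± 10.9 in G4. The other intron sums were thin. Plod2 introns held 33.37, 21 and 35.83 estimated counts in WT and 6, 0 and 4 in G4, and Podxl introns held 33, 18 and 30 in WT and 0, 1 and 0 in G4. The single Podxl count in G4 was 1.22% of WT on library totals, with an exact 95% interval of 0.0305% to 6.98% that covers counting error only.

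**Figure D2:**
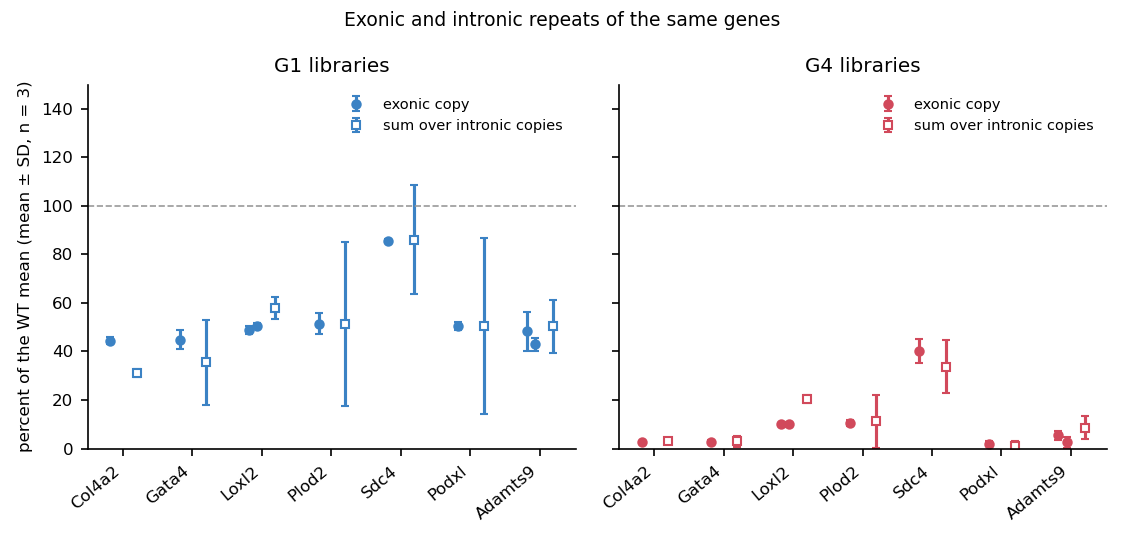
Percent of the WT mean in G1 (left) and G4 (right) for the exonic repeat copies and for the sum over intronic copies of the same 7 genes, as mean ± SD of 3 libraries, with a dashed line at the WT mean. Exonic and intronic values were low together in G4, from 2.08% to 40.2% and from 1.11% to 33.7%, and Sdc4 was the highest in both.

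Other copies of the same repeat names were not lowered to the levels of the members. The other 4556 copies of B1F1 summed in CPM to 16000 ± 703 in G4, against 11400 ± 199 in WT and 11300 ± 79.5 in G1 (SD, n = 3), and so were higher in G4 where the Col4a2 and Adamts9 copies were low. The other MIR3 copies were at 97.3% ± 1.23 and the other MIRb copies at 102% ± 2.06 of WT in G4. The other MER3 copies were at 90.3% ± 7.01, the other MTEb-int copies at 87.5% ± 18.0, the other RLTR17B_Mm copies at 79.0% ± 4.14 and the other MTEb copies at 69.2% ± 5.19 (SD, n = 3). The MTEb sum, 1940 ± 14.6 CPM in WT and 1340 ± 101 in G4, still includes the further MTEb copy in the Loxl2 3′ UTR. That copy alone held 590 ± 20.5 CPM in WT and 59.6 ± 4.1 in G4 (SD, n = 3), so the 69.2% is not free of Loxl2. For some names a single host gene made up most of the signal. The Gata4 copy held 99.5% of all LTR103b_Mam counts, the Loxl2 copy 90.9% of the MTEb-int counts and the Sdc4 copy 63.3% of the MER3 counts.

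Repeat copies around the members gave the regional background. Within 5 Mb of a member, the median log2 fold change of other tested copies in G4 against WT lay between -0.18 and 0.39 for Col4a2, Gata4, Loxl2, Plod2 and Sdc4. It was -0.95 over 33 copies around Podxl and -0.32 over 41 copies around Adamts9, both on chromosome 6. The median was -0.33 over 574 copies of chromosome 6 and 0.0 over 12685 copies elsewhere. In G1 against WT the medians around Podxl and Adamts9 were 0.14 and 0.13. The members of both genes lay far below these medians in G4, and the part of the DNA copy number of chromosome 6 in their values was not tested.

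**Figure D3:**
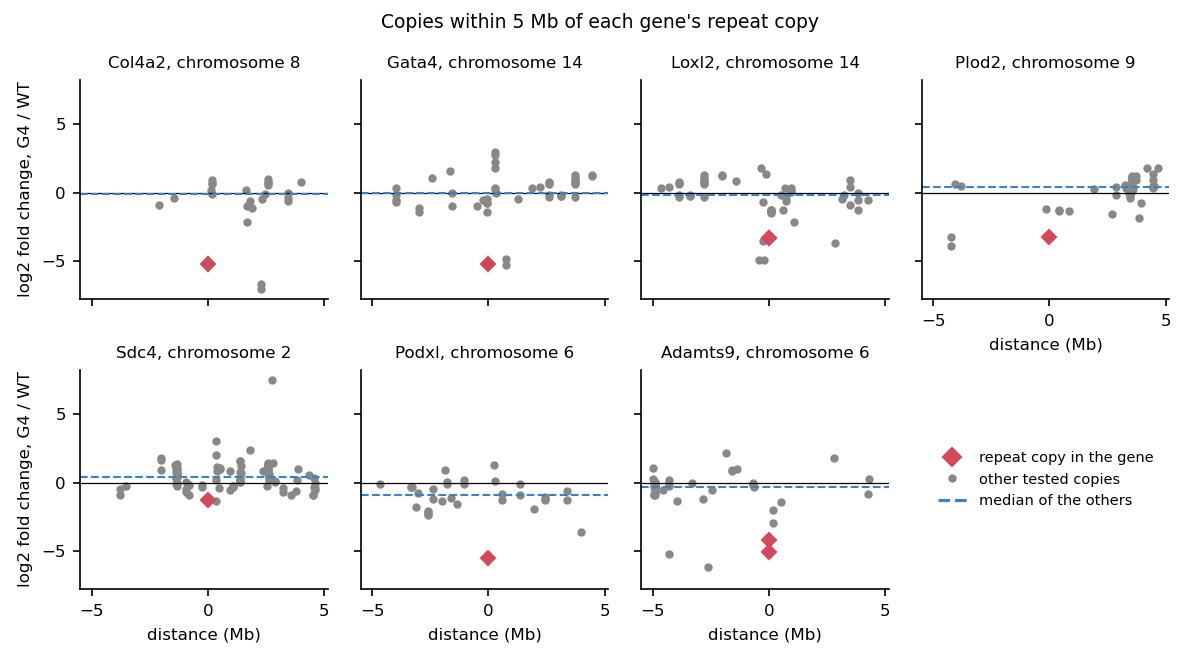
Log2 fold change in G4 against WT of tested repeat copies by distance, in Mb, from the repeat copy of each of the 7 genes, with diamonds for the copies in the gene, grey points for other copies and a dashed line at the median of the others. The diamonds lie below the dashed line in every panel, and the dashed line itself is lowest around Podxl, at -0.95.

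Genes that work with the members were tested by the sum over repeat copies in their exons, with edgeR's quasi-likelihood test, Benjamini-Hochberg adjustment over all 4597 genes tested, and a call at an adjusted p under 0.05. The 7 member genes were left out of these counts. The lists were written with earlier results of these data known, so their counts are set beside all genes tested and are not independent support. Of 52 listed primitive endoderm factors and markers, 11 could be tested, since many have no copy in an exon or too few counts. In G4 against WT, 7 were lower and 3 higher, with a median log2 fold change of -2.12, where 24.2% of all genes tested were lower and 24.3% higher with a median of 0.0. In G1 against WT, 6 were lower and 1 was higher with a median of -0.82, where 6.57% of all genes were lower and 4.59% higher. In G4 against G1, 7 were lower and 1 was higher, where 22.7% of all genes were lower and 20.6% higher.

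Sox7, a transcription factor of the primitive endoderm on chromosome 14, fell with 265, 222 and 285 counts in WT, 100, 113 and 85 in G1, and 7, 11 and 5 in G4. Its log2 fold change was -5.18 (SE 0.22, adjusted p = 3.19e-28) in G4 and -1.35 (SE 0.14, adjusted p = 7.7e-11) in G1. Pdgfra, the receptor by which primitive endoderm is often marked, fell by 3.01 on the log2 scale in G4 (SE 0.33, adjusted p = 3.89e-11) and by 0.82 in G1 (SE 0.26, adjusted p = 0.0293). Srgn, the proteoglycan serglycin, held 147, 206 and 135 counts in WT, 59, 81 and 78 in G1 and 2, 0 and 2 in G4. Dkk1, a secreted Wnt inhibitor, held 24, 24 and 30 counts in WT and 8, 10 and 8 in G1 and was at 0 in all G4 libraries. This was at least 26.4-fold lower on library totals, taking a floor of 3 counts over the group (adjusted p = 8.11e-11). Beside the 7 lower genes, the 3 that were higher in G4 were Thbd, Apoe and Sparc. Thbd rose by 0.88 (SE 0.15, adjusted p = 2.12e-06) in G4 and by 0.83 (SE 0.15, adjusted p = 7.97e-05) in G1. Apoe rose by 0.8 (SE 0.3, adjusted p = 0.0234) in G4.

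Sparc, a matrix protein that binds collagen IV, gave opposite directions in exons and introns. Its exonic copies held 8, 13 and 11 counts in WT, 11, 22 and 12 in G1 and 33, 57 and 53 in G4 (log2 fold change 2.0, SE 0.31, adjusted p = 3.13e-07). Its intronic copies held 70, 76 and 73 counts in WT, 26, 20 and 21 in G1 and 26, 24 and 17 in G4 (log2 fold change -1.76, SE 0.26, adjusted p = 2.29e-07). The exonic sum was the smaller of the pair in WT.

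Gata6, Sox17, Foxa2, Lama1 and Col4a1 have no exonic copy in the table, and Sox17 and Foxa2 could not be tested in introns either. The intronic sums were therefore tested in the same way over 7843 genes, a step added after the data were seen. Of 18 primitive endoderm genes tested in introns, 11 were lower and 0 higher in G4 against WT by edgeR, where 15.0% of all genes were lower and 14.8% higher. In G1 against WT, 6 were lower and 0 higher, where 1.87% were lower and 0.778% higher. In G4 against G1, 9 were lower and 1 was higher, where 11.7% were lower and 13.0% higher. Both counts of 0 were also 0 at an unadjusted p under 0.05 and by the Wald test of DESeq2.

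Gata6, which acts ahead of Gata4 in the lineage, held 59, 43 and 77 intronic counts in WT, 28, 32 and 19 in G1, and 1, 0 and 0 in G4. The G4 level was 0.551% of WT on library totals, with an exact 95% interval of 0.0139% to 3.11% for counting error (adjusted p = 1.04e-15). Dab2, an endocytic adaptor of the extraembryonic endoderm, held 10, 28 and 24 intronic counts in WT, 10, 10 and 16 in G1 and 1, 0 and 1 in G4. Its step passed the test in G4 (adjusted p = 5.72e-07) and had an adjusted p of 0.391 in G1. Cubn, an endocytic receptor of the visceral endoderm, fell by 4.2 (SE 0.52, adjusted p = 2.14e-09) on the log2 scale in G4 and by 2.22 (SE 0.41, adjusted p = 0.0002) in G1. Ctsh, the protease cathepsin H, fell by 4.66 (SE 0.48, adjusted p = 7.78e-12) in G4. Hnf4a, a factor of the visceral endoderm, stood at 0.18 on the log2 scale (SE 0.63, adjusted p = 0.868) at 1 to 16.08 estimated counts in the G4 and WT libraries.

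The matrix lists, 143 genes for basement membrane, collagen processing, cell surface proteoglycans, ADAMTS proteases and matrix receptors together, gave both directions. Of 27 genes tested in exons, 12 were lower and 9 higher in G4 against WT, with a median log2 fold change of 0.15. In G1 against WT, 5 were lower and 2 higher, and in G4 against G1, 9 were lower and 6 higher. Over all genes tested in exons, 24.2% were lower and 24.3% higher in G4 against WT, with a median of 0.0. These shares were 6.57% and 4.59% in G1 against WT, and 22.7% and 20.6% in G4 against G1. In introns, 21 of 60 were lower and 7 higher in G4 against WT, with a median of -0.49, and in G1 against WT 11 were lower and 2 higher. In G4 against G1, 16 intron sums were lower and 8 higher. Over all intron sums tested, 15.0% were lower and 14.8% higher in G4 against WT. The shares were 1.87% and 0.778% in G1 against WT, and 11.7% and 13.0% in G4 against G1.

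Among the 5 matrix lists, collagen processing had the most genes lower in exons. Of 8 genes tested in exons, 7 were lower and 1 was higher in G4 against WT, and 4 were lower and 0 higher in G1 against WT by edgeR. Over all genes tested in exons, 24.2% were lower and 24.3% higher in G4, and 6.57% were lower and 4.59% higher in G1. At an unadjusted p under 0.05, 1 was higher in G1, and by the Wald test of DESeq2 0 were. P4ha1 and P4ha2 encode catalytic subunits of the prolyl hydroxylase that stabilises collagen helices. P4ha1 held 57, 57 and 69 counts in WT, 34, 33 and 28 in G1 and 11, 16 and 26 in G4 (log2 fold change -1.92, SE 0.25, adjusted p = 5.91e-09) in G4. P4ha2 fell by 3.85 (SE 0.66, adjusted p = 1.98e-06) on the log2 scale in G4 and by 1.58 (SE 0.5, adjusted p = 0.0291) in G1. Colgalt1, which adds galactose to the hydroxylysines made by Plod enzymes, held 492, 502 and 538 counts in WT, 275, 340 and 294 in G1 and 113, 143 and 124 in G4, with no overlap between groups. Plod3, a relative of Plod2, fell by 1.53 (SE 0.52, adjusted p = 0.0127) in G4, Pcolce, an enhancer of procollagen cleavage, fell by 1.93 (SE 0.59, adjusted p = 0.00541), and P3h3, a relative of the prolyl 3-hydroxylases, rose by 1.74 (SE 0.43, adjusted p = 0.000558).

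In introns, 9 of 16 collagen processing genes were lower and 2 higher in G4 against WT, where 15.0% of all genes were lower and 14.8% higher. Serpinh1, the collagen chaperone HSP47, held 25, 53 and 47 counts in WT, 17, 15 and 6 in G1 and 1, 5 and 3 in G4 (log2 fold change -3.81, SE 0.48, adjusted p = 4.42e-09) in G4. P3h2, a prolyl 3-hydroxylase of basement membrane collagen, held 33, 13 and 33 counts in WT and was at 0 in all G4 libraries, at least 26.7-fold lower on library totals with a floor of 3 counts over the group. Plod1 introns stood at -0.39 on the log2 scale (SE 0.4, adjusted p = 0.51).

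Basement membrane genes were read mostly from introns. In introns, 8 of 15 were lower and 2 higher in G4 against WT, and 5 were lower and 2 higher in G1. Over all genes tested in introns, 15.0% were lower and 14.8% higher in G4, and 1.87% were lower and 0.778% higher in G1. Col4a1, which encodes the partner chain of Col4a2 and lies head to head with it, held 103, 95 and 114 intronic counts in WT, 22, 34 and 27 in G1, and 1, 2 and 3 in G4. The log2 fold change was -5.67 (SE 0.37, adjusted p = 7.93e-20) in G4, close to the -5.28 of the Col4a2 copy. Lama1, Lamb1 and Lamc1 encode the 3 chains of laminin-111, the laminin of the early embryo. Lama1 introns held 358, 301 and 367 counts in WT, 100, 159 and 138 in G1 and 12, 6 and 8 in G4 (log2 fold change -5.33, SE 0.23, adjusted p = 8.47e-28). Lamb1 introns fell by 4.54 (SE 0.28, adjusted p = 8.79e-21), and those of Lamc1 fell by 2.28 (SE 0.22, adjusted p = 1.1e-12).

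Other basement membrane genes gave smaller or opposite values. Nid1, which links laminin to collagen IV, held 376, 400 and 413 exonic counts in WT, 269, 356 and 258 in G1 and 324, 411 and 372 in G4. The raw counts of WT and G4 overlapped, and the CPM did not, with a lowest WT library of 397 CPM and a highest G4 library of 362 CPM, where the log2 fold change was -0.24 (SE 0.09, adjusted p = 0.0302). Nid2 introns stood at -0.45 on the log2 scale (SE 0.21, adjusted p = 0.106), and those of Hspg2, the proteoglycan perlecan, fell by 0.66 (SE 0.21, adjusted p = 0.0125). Fbln2, a fibulin, rose by 0.85 (SE 0.1, adjusted p = 5.5e-11) in G4 and by 0.84 (SE 0.1, adjusted p = 1.46e-09) in G1. Fbln1 introns rose by 2.69 (SE 0.62, adjusted p = 0.000562) in G4. Of the 5 basement membrane genes tested in exons, 2 were lower and 2 higher in G4, beside 24.2% and 24.3% of all genes tested.

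Relatives of Sdc4, Podxl and Adamts9 were tested in both places. Of 7 cell surface proteoglycan genes tested in exons, 1 was lower and 2 were higher in G4 against WT, and in introns 2 of 15 were lower and 2 higher. Over all genes tested, 24.2% were lower and 24.3% higher in exons, and 15.0% were lower and 14.8% higher in introns. Nothing is read from the counts of this list. Sdcbp, the adaptor syntenin that binds syndecan tails, held 24, 17 and 30 counts in WT, 14, 9 and 12 in G1 and 4, 4 and 3 in G4 (log2 fold change -2.77, SE 0.47, adjusted p = 1.86e-06). Extl1 and Ndst1, enzymes that act on heparan sulfate chains, were the pair that rose, Extl1 by 2.62 (SE 0.52, adjusted p = 3.14e-05) and Ndst1 by 0.49 (SE 0.18, adjusted p = 0.0177). Sdc2, another syndecan, had 0.83 (SE 0.41, adjusted p = 0.091). In introns, Gpc4 and Gpc6, glypicans, fell by 1.26 (SE 0.29, adjusted p = 0.000572) and 2.27 (SE 0.33, adjusted p = 1.49e-07), while Ext1 and Hs6st1, also of heparan sulfate synthesis, rose by 0.72 (SE 0.21, adjusted p = 0.00753) and 0.87 (SE 0.22, adjusted p = 0.00187), and Gpc3 had 1.03 (SE 0.53, adjusted p = 0.14). Of the ADAMTS genes, 1 of 2 in exons and 1 of 3 in introns were lower, Adamtsl5 where the log2 fold change was -2.22 (SE 0.57, adjusted p = 0.000932) and Adamts13 with -1.31 (SE 0.34, adjusted p = 0.00211), and Adamts14 introns rose by 2.09 (SE 0.41, adjusted p = 5.27e-05).

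Of 5 matrix receptors tested in exons, 4 were higher and 1 was lower in G4 against WT, where 24.3% of all genes were higher and 24.2% lower. Itga6, the laminin receptor subunit of ESCs, rose by 0.36 (SE 0.1, adjusted p = 0.00213) in G4 and by 0.39 (SE 0.1, adjusted p = 0.00511) in G1. Itga4 rose by 1.77 (SE 0.38, adjusted p = 0.000105) and Itgb3 by 1.91 (SE 0.49, adjusted p = 0.000965). Tln1, the integrin adaptor talin, rose by 0.73 (SE 0.26, adjusted p = 0.0159), and Cd151, a tetraspanin that binds laminin receptors, fell by 0.71 (SE 0.24, adjusted p = 0.0134). In introns, 1 of 12 receptors was lower, Bcam, a laminin receptor, by 0.98 (SE 0.29, adjusted p = 0.00646), and 1 was higher. The shares over all genes tested in introns were 15.0% lower and 14.8% higher. Itgb1 introns stood at -0.52 on the log2 scale (SE 0.25, adjusted p = 0.118).

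**Figure D4:**
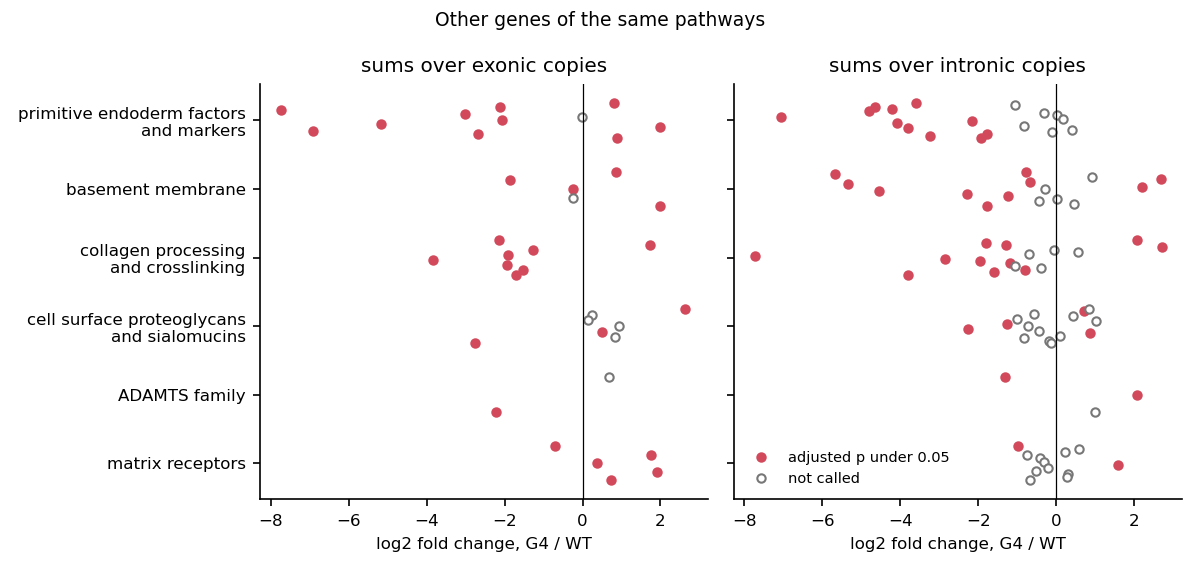
Log2 fold change in G4 against WT of genes in 6 lists, by the sum over exonic (left) and intronic (right) repeat copies, with filled points at an adjusted p under 0.05 (edgeR) and open points for genes that were not called. Primitive endoderm and collagen processing genes lie mostly below 0 on both sides, with 7 of 11 and 7 of 8 lower in exons, beside 24.2% of all genes. Matrix receptors lie mostly near or above 0.

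Markers of the cell types that these cultures could hold were summed per library. The 5 of 10 primitive endoderm markers with exonic copies summed to 1030 to 1100 CPM in WT, 458 to 499 in G1 and 63.8 to 91.4 in G4. The selected Gata4 copy gave 2199 of these counts over the WT libraries, so this sum largely repeats the selection. The sums that leave out a marker were added after the data were seen. Without Gata4, the other 4 summed to 287 to 340 CPM in WT, 132 to 147 in G1 and 50.6 to 65.8 in G4. Within this sum Sparc was higher in G4, as given above, and without Gata4 and Sparc the other 3 summed to 274 to 331 CPM in WT and 12.6 to 14.3 in G4. Of these 3, Sox7 held 772 counts over the WT libraries, Pdgfra 142 and Dab2 7, so this sum largely repeats Sox7. In introns, the 8 of 9 markers other than Gata4 that have copies summed to 582 to 649 CPM in WT, 199 to 247 in G1 and 27.0 to 45.1 in G4. Lama1 was the largest part of this sum, with 1026 counts over the WT libraries, and Sox17 held 1.

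The exonic sum of 3 of 6 ESC markers, 1220 to 1400 CPM in WT, 2030 to 2340 in G1 and 3440 to 4160 in G4, was almost all Nanog. Nanog, a factor of the naive epiblast, rose by 1.5 (SE 0.07, adjusted p = 7.52e-27) on the log2 scale in G4 against WT. Esrrb, an orphan nuclear receptor of ESCs, held 9 exonic counts in WT and 68.5 in G4 over the group. Zfp42 held 16, 13 and 19 exonic counts over the WT, G1 and G4 libraries and could not be tested in exons. In introns, 5 of 6 ESC markers had copies, and without Nanog they summed to 127 to 149 CPM in WT, 187 to 221 in G1 and 344 to 442 in G4. The Zfp42 introns rose by 0.67 (SE 0.2, adjusted p = 0.00667) in G4.

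The 4 of 8 feeder fibroblast markers with exonic copies summed to 39.7 to 67.2 CPM in WT, 73.7 to 102 in G1 and 94.5 to 106 in G4. Col1a1, a chain of type I collagen, gave 130, 202 and 274 of these counts over the WT, G1 and G4 libraries and rose by 0.94 (SE 0.19, adjusted p = 3.99e-05) in G4. Without Col1a1 the sums overlapped, with 6.27 to 17.3 CPM in WT, 11.0 to 29.2 in G1 and 12.6 to 15.5 in G4. Dcn held 2, 0 and 0 exonic counts and 1, 0 and 1 intronic counts over the WT, G1 and G4 libraries, too few to compare. The intronic copies of 3 of 8 feeder markers stayed at or below 2.2 CPM in every library. The 2 of 5 trophectoderm markers with copies, Gata3 and Eomes, stayed at or below 8.86 CPM in every library. Cdx2, Elf5 and Hand1 had no copy and could not be read. Of 13 pluripotency genes tested in exons, 10 were higher and 2 lower in G4 against WT, and 7 were higher and 1 was lower in G1. Over all genes tested in exons, 24.3% were higher and 24.2% lower in G4, and 4.59% were higher and 6.57% lower in G1. Prdm14 rose by 4.06 (SE 0.36, adjusted p = 1.61e-14), and Tdgf1 by 1.93 (SE 0.05, adjusted p = 1.56e-36), while Lifr, the receptor for leukemia inhibitory factor, fell by 1.37 (SE 0.21, adjusted p = 2.6e-07). The part of the cell mixture in the levels of the members was not tested.

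The genes whose pattern was most like that of the members were named by the correlation of their log2 CPM with the mean of the standardised member values, over 1759 genes that averaged 50 or more counts in a library. The 9 libraries fall into 3 groups, so the values mainly carry the order of the groups. The highest were Slc38a1 (Pearson r = 0.999), Clcn5 (0.998), Dnajc5 (0.997), Lpar2 (0.996) and B3gnt3 (0.996). Among these, B3gnt3 came nearest to the members' median in G4, keeping 6.72% ± 1.01 of WT in G4 and 56.0% ± 6.04 in G1 (SD, n = 3). Dnajc5 kept 81.9% ± 3.43 in G1 and 40.5% ± 1.47 in G4 (SD, n = 3), close to the 85.7% and 40.2% of Sdc4.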

How the data were processed

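RNA of 9 mouse ESC libraries was analysed. The estimated counts per single repeat copy were deposited by the authors, and 55092 copies hold values that are not whole, so some reads had been divided between copies. The processing notes of the submitters name FastQC 0.11.9, STAR 2.5.3a, featureCounts and mm10. Columns named Control were taken as WT, and 0 columns of sample values were left unused. A second table of normalized values was not used here. Member copies and gene lists were chosen with earlier results of these data known.

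Copies were placed in GENCODE M21 gene models and called exonic when at least 0.5 of their length lay in exons. Single copies were rounded to whole counts, low ones were dropped by filterByExpr, and the rest were fitted over all 9 libraries with the quasi-likelihood model of edgeR 4.0.16 (R 4.3.3), with TMM factors and the totals of the whole table as library sizes. Sums over exonic or intronic copies of a gene were fitted in the same way. Tests were two-sided. The pipeline was tested on simulated data. Each SE was taken as the size of the log2 fold change divided by the root of its F statistic. A prior count of 2 was added for log2 CPM.

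The 11 gene lists covered primitive endoderm, 5 matrix groups, feeder fibroblast, pluripotency, trophectoderm, mesoderm and hypoxia response. Genes were named by a rule: member copies, other copies in their genes over 5 counts per library, partner genes of the members, up to 4 called genes per list with the largest change and at least 10 counts per library, and 5 genes by likeness. Alternatives were DESeq2 1.42.0 size factors and Wald test, library totals, a looser filter, a replicate block, fits on 2 groups, a fold rule, subsets of copies and leaving out each library. No pair of replicates agreed within sampling noise.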

Additional observations from a re-analysis of the deposited data

How the results depend on the processing

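Log2 fold changes of the members kept their direction under every alternative that was run, and 399 of 405 values moved by less than 1 SD between replicates. Of the counts of called primitive endoderm and matrix genes, 110 of 114 stayed within 1.5 times. With a fold over 2 and an unadjusted p under 0.05, 1 matrix gene was called in G1 against WT in place of 7. With whole-valued copies alone, 5 primitive endoderm genes were called in G4 against G1 in place of 8, where 9 genes were tested in place of 11. With intronic in place of exonic copies, chosen after seeing the data, 13 matrix genes were called in G1 against WT in place of 7, and 24 in G4 against G1 in place of 15, where 60 genes were tested in place of 27. Scaling by library totals moved the median of all genes in G4 against WT to 0.11. Thin copies limit the precision, as in Adamts9, where G4 held 0 to 10 counts per library.

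Replicate numbers shared by the groups did not pair the libraries. Deviations from the group means correlated between -0.065 and 0.051 for equal numbers, and 1 of 9 libraries was closest to its own number. With the replicate block, 7 primitive endoderm and 14 matrix genes were called in G4 against G1 in place of 8 and 15, and the other counts were 10 and 21 in G4 against WT and 7 and 7 in G1 against WT, as without it.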

Other observations

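Genes of the hypoxia response gave both directions. Of 6 tested in exons by edgeR, 2 were higher and 3 lower in G4 against WT, and of 19 tested in introns, 1 was higher and 9 were lower. The shares over all genes tested were 24.3% higher and 24.2% lower in exons, and 14.8% higher and 15.0% lower in introns. Pdk1, a kinase that limits entry of pyruvate into mitochondria, held 192, 202 and 201 counts in WT, 274, 345 and 249 in G1 and 518, 667 and 687 in G4 (log2 fold change 1.51 in G4 against WT, SE 0.1, adjusted p = 2.58e-20). Egln3, an oxygen sensor, rose by 2.38 (SE 0.37, adjusted p = 3.21e-07). Ero1l, an oxidase of the endoplasmic reticulum, fell by 0.96 (SE 0.08, adjusted p = 4.29e-15). In introns, the glycolytic gene Pgk1 fell by 2.42 (SE 0.37, adjusted p = 3.42e-07), and Ldha, also of glycolysis, fell by 1.54 (SE 0.27, adjusted p = 1.03e-05).

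Of 4 feeder fibroblast genes tested in exons, 3 were higher in G4 against WT, and Fn1, which encodes fibronectin, held 9, 22 and 15 intronic counts in WT, 42, 40 and 28 in G1 and 119, 110 and 135 in G4 (log2 fold change 2.91, SE 0.26, adjusted p = 5.2e-14). Fn1 is therefore a matrix gene that was higher where Col4a1 and Lama1 introns were lower. Of 2 mesoderm genes tested in exons, 1 was higher and 1 lower, and Flt1, a receptor for vascular growth factors, fell by 2.93 (SE 0.4, adjusted p = 3.85e-08) in introns, where 2 of 2 were lower. Of 3 trophectoderm genes tested in introns, 1 was higher, Tfap2c by 1.49 (SE 0.4, adjusted p = 0.00289), and the 1 gene tested in exons was not called. Beside these lists, 24.3% of all genes tested were higher and 24.2% lower in exons, and 14.8% were higher and 15.0% lower in introns.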
